A study of Mus musculus with 8 samples.

Results

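Transcripts of the Cyp4a fatty acid hydroxylases were examined in the livers of 8 mice, 4 Rragc+/+ and 4 Rragc S74N/+. The genes were chosen by name. Cyp4a10, Cyp4a14, Cyp4a31 and Cyp4a32 were taken as members driven by the nuclear receptor PPARA, Cyp4a12a and Cyp4a12b as members driven by growth hormone, and all 6 were present among the 14506 genes of the table. RagC, the product of Rragc, is a small GTPase through which amino acids activate the growth kinase complex mTORC1, and S74N is an activating amino acid substitution placed in the mouse gene by CRISPR editing and carried here on 1 allele. The mice of the study were C57BL/6 fed standard chow, and neither the sex of these mice nor their feeding state at dissection is given in the labels. Of the Rragc+/+ mice, replicates 1, 2 and 3 were 3 months old and replicate 4 was 2.5 months old. Of the Rragc S74N/+ mice, replicates 1 and 2 were 3 months old, replicate 3 was 2.5 months old and replicate 4 was 2 months old. The labels name no treatment. Libraries were made from RNA of whole liver and sequenced only the 3′ ends of messenger RNAs, and a normalized read count then follows the number of transcripts and not their length.

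Enzymes of the Cyp4a family are cytochrome P450 proteins of the endoplasmic reticulum that add a hydroxyl group to the last carbon of a fatty acid, the first step of omega-oxidation. The product is oxidized further by alcohol and aldehyde dehydrogenases to a dicarboxylic acid, which is shortened in peroxisomes. PPARA, activated by fatty acids during fasting or by fibrate drugs, binds DNA with RXRA and raises Cyp4a10 and Cyp4a14 in mouse liver. The Cyp4a12 genes instead are raised in male liver by the pulsatile release of growth hormone, which acts through the receptor GHR and the transcription factor STAT5B.

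The 6 genes lie in a single cluster of 322.6 kb on chromosome 4 of GRCm38, in the annotation GENCODE M21. Cyp4a12a (115299046 to 115332815) is followed by Cyp4a12b (115411624 to 115439034), Cyp4a14 (115486200 to 115496142), Cyp4a10 (115518264 to 115533649), Cyp4a31 (115563649 to 115579015) and Cyp4a32 (115600969 to 115621602). Cyp4a14 is on the reverse strand and the other 5 are on the forward strand. The genes are copies of each other, and this bears on the counts given here. A read from an identical stretch cannot be told apart between copies. Over the aligned coding sequence, Cyp4a12a and Cyp4a12b were 98.5% identical, Cyp4a10 and Cyp4a32 97.2%, and Cyp4a10 and Cyp4a31 96.6%. Cyp4a14 was the most distant, at 75.1% to 76.0% identity with each of the others. The last 60 coding bases, stop codon included, show these distances and are printed 5′ to 3′ from the M21 transcripts. Capitals mark bases that differ from the copy compared, which is Cyp4a31 for Cyp4a10, Cyp4a10 for Cyp4a31, Cyp4a32 and Cyp4a14, and the other Cyp4a12 gene for each Cyp4a12 gene.
Cyp4a10: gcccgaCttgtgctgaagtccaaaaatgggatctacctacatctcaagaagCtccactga
Cyp4a31: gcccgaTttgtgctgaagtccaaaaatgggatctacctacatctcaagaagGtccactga
Cyp4a32: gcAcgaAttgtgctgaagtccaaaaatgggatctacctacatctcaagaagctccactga
Cyp4a14: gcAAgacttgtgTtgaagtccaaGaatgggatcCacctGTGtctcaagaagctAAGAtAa
Cyp4a12a: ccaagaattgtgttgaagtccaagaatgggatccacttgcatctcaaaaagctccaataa
Cyp4a12b: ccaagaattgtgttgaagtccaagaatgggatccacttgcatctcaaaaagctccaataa
Cyp4a14 differed from Cyp4a10 at 13 of these bases, Cyp4a31 and Cyp4a32 at 2 each, and the Cyp4a12 genes at 0 from each other.

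Reads of this assay come mostly from the 3′ untranslated region, so windows of 75 bases were compared over the last 600 bases of each transcript with all other Cyp4a transcripts of M21. The window length was chosen here, since the read length is not given in the sources used here. The authors' alignment allowed 3 mismatches. For Cyp4a14, no window came within 3 mismatches of another Cyp4a transcript, and the closest had 36. For Cyp4a10 18.6% of windows did, for Cyp4a31 16.7%, for both Cyp4a12a and Cyp4a12b 74.9%, and for Cyp4a32 86.9%. Fewer windows were identical to another Cyp4a transcript, at 0.38% for both Cyp4a10 and Cyp4a31, 26.4% for both Cyp4a12 genes and 54.4% for Cyp4a32. The authors' alignment also allowed a read to have multiple hits. How reads that fit more than 1 copy were counted is not stated in the methods and was not checked. Whether such reads were lost or placed with 1 of the copies is thus not known. The annotated Cyp4a32 transcript also ends at its stop codon, with 0 bases of 3′ untranslated region against 521 to 943 bases in the other 5. Its windows were thus all of coding sequence and those of the other 5 mostly or wholly of untranslated sequence, so its share is of an unlike region. Windows of the other copies could not be compared with an untranslated end of Cyp4a32. Counts of Cyp4a14 were therefore the best separated of the family, the split between Cyp4a12a and Cyp4a12b is uncertain, and Cyp4a32 is uncertain both in its assignment and in how much of its 3′ end was counted.

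**Figure D1:**
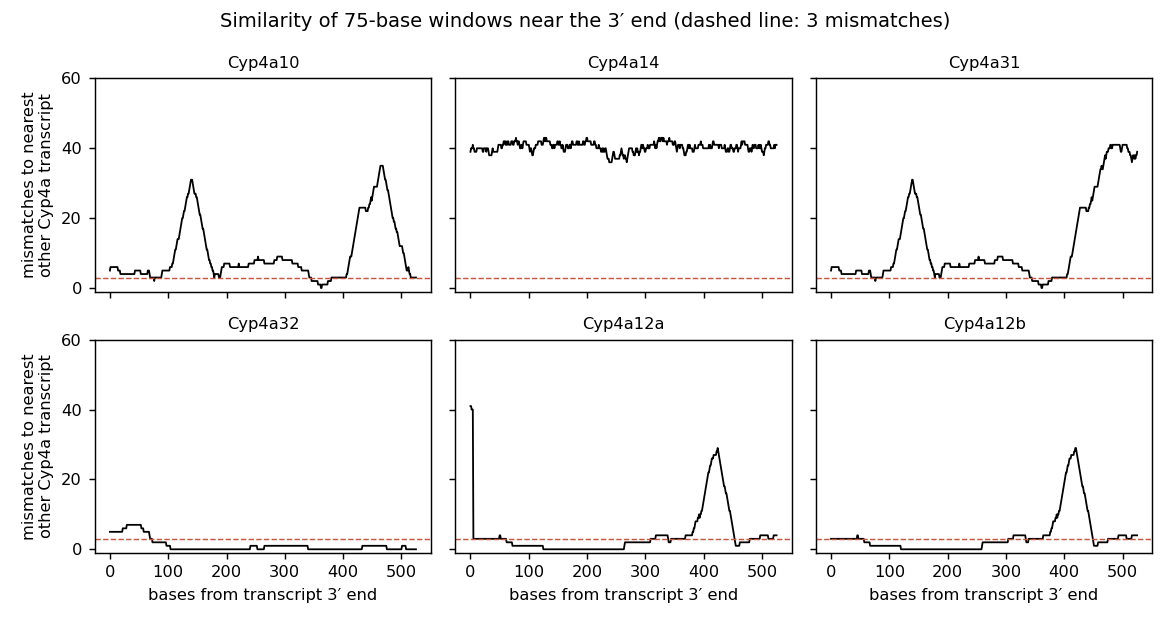
Each panel plots, for 1 Cyp4a transcript, the fewest mismatches (bases out of 75) between a window and any other Cyp4a transcript of GENCODE M21 against the distance of the window's end from the transcript's 3′ end, in bases. The line for Cyp4a14 never falls below 36 mismatches, whereas the lines for Cyp4a32, Cyp4a12a and Cyp4a12b lie mostly at or under the dashed line at 3 mismatches. The windows of Cyp4a32 are all of coding sequence.

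Recovered reads in listed genes ranged from 4313076 to 6632108 per liver, and the 6 Cyp4a genes held 5928 to 14471 of them, or 0.119% to 0.224%. Hepatocyte markers were abundant in every liver. The 4 listed Y-linked genes were read in all 8, at mean log2 levels of 6.46 to 7.05. Xist, the transcript of X inactivation, was not among the genes of the table. The youngest mouse, Rragc S74N/+ replicate 4, stood apart. Its mean log2 level over 15 male-biased liver genes was 8.03, against 9.98 to 10.9 in the other 7 livers. Over 7 female-biased genes the level was 7.43, against 3.51 to 5.04, and Cux2 among these reached the filter only through this liver. The age of this mouse and its other properties as an animal cannot be told apart. Values without this liver are given beside those that it moves most. Across 11174 genes with a mean of at least 10, the linear model of limma called 1 gene at a Benjamini-Hochberg adjusted p below 0.05, the antioxidant enzyme Gpx3, which was lower in Rragc S74N/+. The labels name each library as a separate sample but do not say that each is a separate litter, so p-values measure the spread between these livers.

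Cyp4a14 was fitted 3.98-fold higher in Rragc S74N/+ livers, the largest difference in the family with all 8 livers and a pseudocount of 1, and no member passed the adjusted threshold. Cyp4a32, the member with the fewest reads, had the larger difference without Rragc S74N/+ replicate 4 (log2 2.25 against 1.69) and among the 3-month-old mice alone (2.30 against 1.19). The same held without Rragc+/+ replicate 1 (2.22 against 1.85) or Rragc+/+ replicate 4 (1.37 against 1.33), and with a pseudocount of 0.1 or an age term. The PPARA-driven members were all fitted higher in Rragc S74N/+ and the growth-hormone-driven members both lower, but in all 6 the livers of the genotypes overlapped. In other runs the sign turned for Cyp4a10 in 3 of 21 and for Cyp4a12a in 6 of 21. All 6 passed the filter on low values, Cyp4a32 only just, with a mean of 10.3. Its mean was 5.37 in Rragc+/+ and 15.3 in Rragc S74N/+ livers, so it passed only through the latter. The direction of a member let in this way lends no support to a shared direction. The counts called were 0 of 6 in either direction, where 0% of all tested genes were called higher and 0.00895% lower. At an unadjusted p below 0.05 there was Cyp4a14 in limma, Cyp4a14 and Cyp4a31 in edgeR on the recovered reads (0.0243 and 0.0329) and Cyp4a31 in DESeq2 (0.0213, with 0.0511 for Cyp4a14). Of all 11174 tested genes, 265 were higher at that p in limma, 347 in edgeR and 384 in DESeq2. Neither count tool called a member after adjustment.

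Cyp4a10, the most abundant PPARA-driven member, catalyses omega-hydroxylation of medium- and long-chain fatty acids. Its normalized counts were 1779, 4238, 2651 and 1269 in the Rragc+/+ livers and 1613, 3172, 5138 and 1719 in the Rragc S74N/+ livers, given here and below in order of replicate. Each genotype thus held livers with a high and with a low count, and only Rragc S74N/+ replicate 3 lay above all Rragc+/+ livers. The means were 2484 ± 1301 and 2911 ± 1647 (SD, n = 4 each). Fitted on the log2 scale, the fold change was 0.21 (standard error 0.41, 95% interval -0.67 to 1.08), with an adjusted p of 0.915 from limma, and it was smaller than the spread between livers. Its sign turned without 1 of 2 livers, at -0.07 without Rragc+/+ replicate 4 and -0.12 without Rragc S74N/+ replicate 3, and the fold change was 0.41 without Rragc S74N/+ replicate 4.

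Cyp4a14, like Cyp4a10, is a microsomal fatty acid hydroxylase and one of the genes most readily raised by PPARA agonists. Its counts were 386, 1835, 765 and 130 for Rragc+/+ and 2291, 1515, 1328 and 3868 for Rragc S74N/+. The Rragc S74N/+ livers all lay above the Rragc+/+ median, and 2 of them lay above every Rragc+/+ liver, while Rragc+/+ replicate 2 lay above the other 2. There was a 29.8-fold distance between the lowest liver, Rragc+/+ replicate 4, and the highest, Rragc S74N/+ replicate 4, on 139 and 4742 reads. Mean counts were 779 ± 751 in Rragc+/+ and 2251 ± 1156 in Rragc S74N/+ (SD, n = 4 each). The log2 fold change was 1.99 (standard error 0.62, 95% interval 0.66 to 3.33). Its unadjusted p was 0.00668 in limma and its adjusted p 0.846, and an exact two-sided permutation test over the 8 livers gave p = 0.0857, where the smallest possible is 0.0286. Of all tested genes, 2.37% were higher at an unadjusted p below 0.05. The difference fell to 1.33 without Rragc+/+ replicate 4 and to 1.19 among the 3-month-old mice alone, and was 1.69 without Rragc S74N/+ replicate 4.

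Cyp4a31 and Cyp4a32 are close copies of Cyp4a10 that have been studied less. Counts of Cyp4a31 were 57.8, 58.0, 42.4 and 75.7 in the Rragc+/+ livers and 37.6, 124, 228 and 89.7 in the Rragc S74N/+ livers. Of the Rragc S74N/+ livers, 3 lay above and 1 below all Rragc+/+ livers. The log2 fold change of 0.78 (standard error 0.44, 95% interval -0.17 to 1.73) had an adjusted p of 0.846 in limma. It was 0.38 without Rragc S74N/+ replicate 3 and 1.24 without replicate 1.

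Counts of Cyp4a32 were 10.3, 10.3, 0 and 0.934 in the Rragc+/+ livers and 21.1, 26.7, 10.03 and 3.26 in the Rragc S74N/+ livers. They rest on 89 reads in all, with no read in Rragc+/+ replicate 3, where a count of 0 allows a value of up to 4.24. The Rragc S74N/+ livers 1 and 2 exceeded all Rragc+/+ livers and the remaining values were mixed. The log2 fold change of 1.72 had a standard error of 0.97 and a 95% interval of -0.37 to 3.80, with an adjusted p of 0.846 in limma. It was 1.06 without Rragc+/+ replicate 3 and 2.25 without Rragc S74N/+ replicate 4 (unadjusted p 0.0395 in limma), and 2.69 or 0.97 with a pseudocount of 0.1 or 5. When the close copies Cyp4a10, Cyp4a31 and Cyp4a32 were summed, the log2 fold change was 0.23 (standard error 0.40, adjusted p 0.907 in limma). Cyp4a10 made up most of this sum, with a mean over all livers of 2697 against 89.2 and 10.3. The summed value therefore says little about Cyp4a31 or Cyp4a32.

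Cyp4a12a is the main omega-hydroxylase of male mouse liver and makes 20-HETE from arachidonic acid. Its counts in Rragc+/+ livers were even, at 5127, 3829, 4189 and 4697, whereas those in Rragc S74N/+ livers were 4122, 7684, 4671 and 1476. The highest and the lowest liver of the series were thus both Rragc S74N/+, replicates 2 and 4. The means were almost equal, 4460 ± 570 and 4488 ± 2547 (SD, n = 4 each). Its fitted log2 fold change was -0.21 (standard error 0.38, 95% interval -1.04 to 0.62), with an adjusted p of 0.911 in limma. It became 0.25 without Rragc S74N/+ replicate 4 and 0.02 in edgeR on the recovered reads, so no direction can be given.

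Cyp4a12b, the near-identical copy, had counts of 977, 757, 738 and 760 in Rragc+/+ and 1001, 340, 653 and 108 in Rragc S74N/+ livers. Replicate 1 of Rragc S74N/+ was the highest of all 8, and the other 3 of that genotype were below every Rragc+/+ liver. Means were 808 ± 113 and 525 ± 388 (SD, n = 4 each). The log2 fold change was -1.02 (standard error 0.51, 95% interval -2.12 to 0.07), with an adjusted p of 0.846 in limma and an exact permutation p of 0.229. Without Rragc S74N/+ replicate 4 it was -0.41, and in edgeR on the recovered reads -0.62. For Cyp4a12a and Cyp4a12b summed, the log2 fold change was -0.28 (standard error 0.39, adjusted p 0.883 in limma), and 0.20 without that liver. Cyp4a12a made up most of this sum, with a mean over all livers of 4474 against 667.

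**Figure D2:**
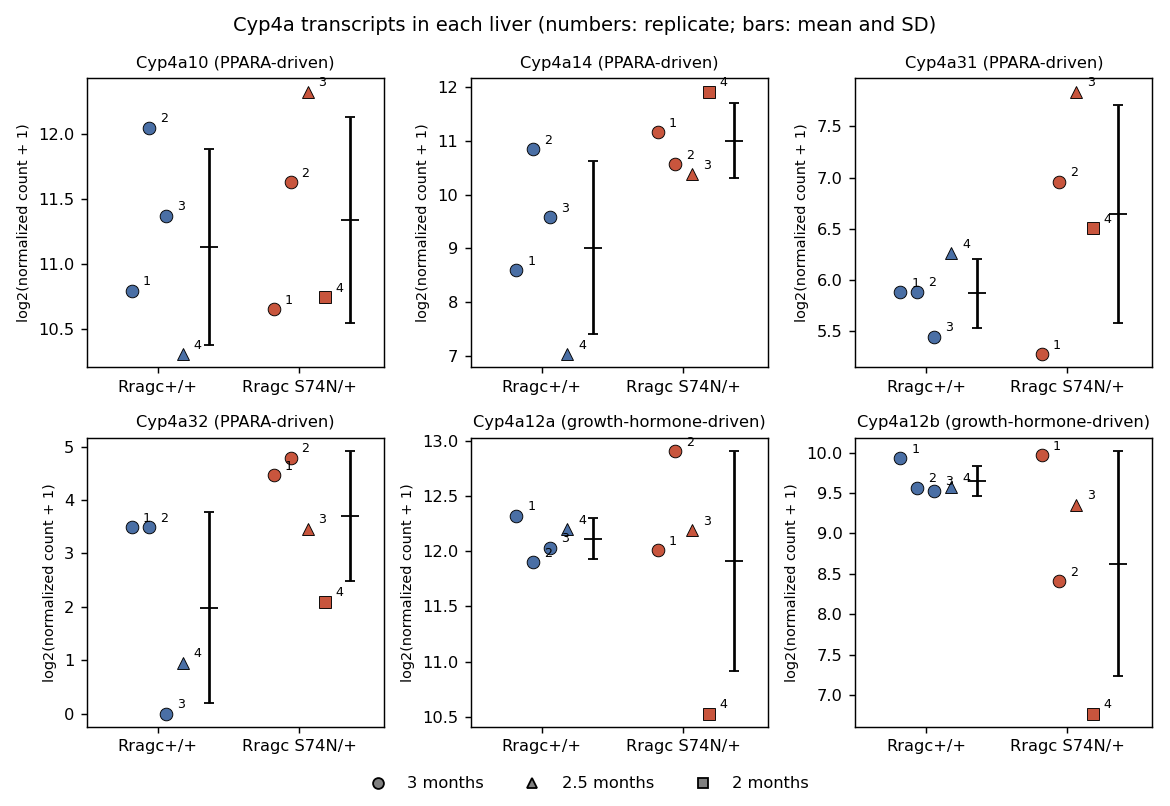
Each panel plots log2(normalized count + 1) of 1 Cyp4a gene in the 8 livers, by genotype, with replicate numbers beside the points, marker shapes for age, and bars for the mean and SD of each genotype (n = 4). Rragc S74N/+ replicate 4, the square, is the highest liver for Cyp4a14 and the lowest for Cyp4a12a and Cyp4a12b, and the genotypes overlap in every panel.

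Both growth-hormone-driven members and Cyp4a31 had wider relative spreads among Rragc S74N/+ than among Rragc+/+ livers. The coefficient of variation of Cyp4a12a was 12.8% in Rragc+/+ and 56.7% in Rragc S74N/+, that of Cyp4a12b was 14.0% and 73.8%, and that of Cyp4a31 was 23.2% and 67.2%. For Cyp4a10 the same values were 52.4% and 56.6%, for Cyp4a14 96.4% and 51.4%, and for Cyp4a32, on few reads, 105.7% and 69.3%. The Rragc S74N/+ values include replicate 4, the lowest liver for both Cyp4a12a and Cyp4a12b. Ages ran from 2 to 3 months in Rragc S74N/+ and from 2.5 to 3 months in Rragc+/+. The difference in variation was not tested. The ratio of Cyp4a12a to Cyp4a12b was even in Rragc+/+ livers, from 5.06 to 6.18, and ranged from 4.12 to 22.6 in Rragc S74N/+. The highest ratio was that of Rragc S74N/+ replicate 2, the liver with the most Cyp4a12a, which held less Cyp4a12b than any other liver but replicate 4. Whether the split of reads between these copies has a part in this ratio was not tested.

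**Figure D3:**
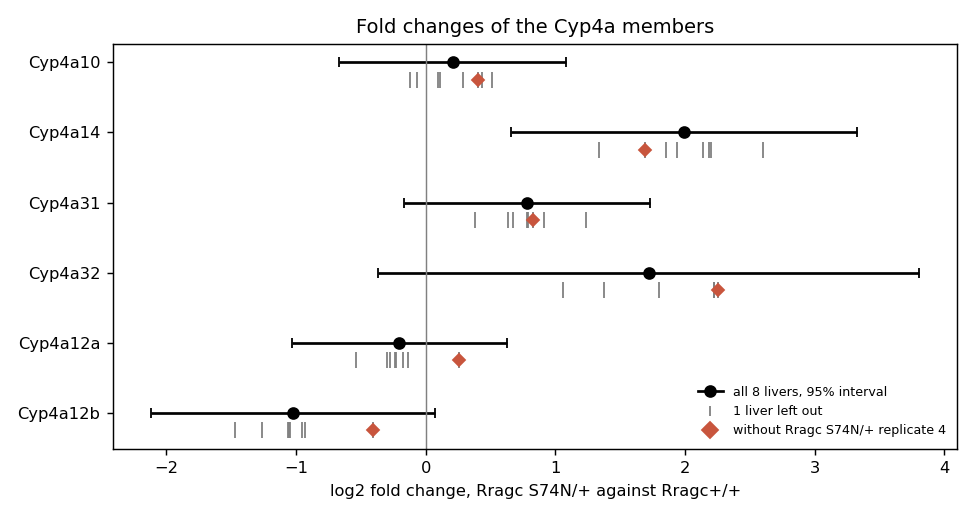
Horizontal axis, log2 fold change of each Cyp4a gene in Rragc S74N/+ against Rragc+/+ livers, with circles and bars for all 8 livers and their 95% intervals from limma, ticks for fits that leave out 1 liver, and diamonds for the fit without Rragc S74N/+ replicate 4. Only the interval of Cyp4a14, 0.66 to 3.33 before adjustment for multiple tests, lies above 0, and the diamond of Cyp4a12a lies on the other side of 0 from its circle.

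Cyp4a12a or Cyp4a10 led the family in most livers. In Rragc+/+, mean counts fell from Cyp4a12a through Cyp4a10 (2484), Cyp4a12b (808) and Cyp4a14 (779) to Cyp4a31 (58.5 ± 13.6, SD, n = 4) and Cyp4a32 (5.37 ± 5.67, SD, n = 4). Cyp4a12b and Cyp4a14 could not be ordered beyond their spread, and Cyp4a12a and Cyp4a10 overlapped through Rragc+/+ replicate 2. In Rragc S74N/+, Cyp4a14 (2251) stood above Cyp4a12b (525) in the order of means, every liver of this genotype having more of the former, and the ranges of Cyp4a12a, Cyp4a10 and Cyp4a14 overlapped. Cyp4a12a had the highest count in 5 livers, Cyp4a10 in 2 (Rragc+/+ replicate 2 and Rragc S74N/+ replicate 3) and Cyp4a14 in 1 (Rragc S74N/+ replicate 4). Cyp4a32 had the lowest count in all 8. Its annotated transcript has 0 bases of 3′ untranslated region, and 54.4% of its windows were identical to another copy. How far this lowers its count was not tested, so the order is one of counts.

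Set against each other, the arms took very different shares of the Cyp4a signal from liver to liver. The PPARA-driven members made up 26.8%, 57.3%, 41.2% and 21.3% of it in the Rragc+/+ livers and 43.6%, 37.6%, 55.7% and 78.2% in the Rragc S74N/+ livers. The extremes were Rragc+/+ replicate 4 and Rragc S74N/+ replicate 4, with 95% Wilson intervals of 20.4% to 22.2% and 77.3% to 79.0%, which cover counting error only. The shares averaged 36.6% ± 16.1 and 53.8% ± 17.9 (SD, n = 4 each), and the genotypes overlapped. Between the leading members, the log2 ratio of Cyp4a10 to Cyp4a12a was -0.98 ± 0.91 in Rragc+/+ and -0.57 ± 0.86 in Rragc S74N/+ (SD, n = 4 each). This difference of 0.41 did not exceed the spread among livers (p = 0.543 in a two-sided exact permutation test, smallest possible 0.0286), and it was 0.15 without Rragc S74N/+ replicate 4 and -0.63 among the 3-month-old mice alone. The median log2 fold change was 1.25 over the 4 PPARA-driven members and -0.61 over the 2 others, beside 0.01 over all tested genes. Without Rragc S74N/+ replicate 4, the medians of the members were 1.26 and -0.08. The PPARA-driven median lies between Cyp4a31 (0.78) and Cyp4a32 (1.72). The latter rests on 89 reads and passed the filter only through the Rragc S74N/+ livers. This median fell to 0.78 at a mean of at least 50 and to 0.67 without Rragc S74N/+ replicate 2, where Cyp4a32 was not tested. It was 0.86 with a pseudocount of 5, 0.79 among the 3-month-old mice alone and 1.39 with a pseudocount of 0.1.

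**Figure D4:**
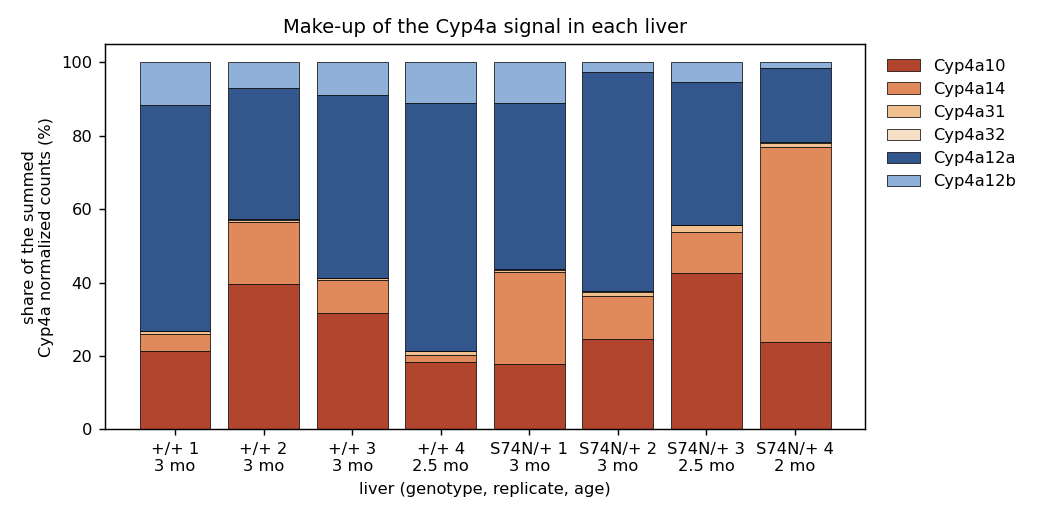
Stacked bars give the share (%) of each Cyp4a gene in the summed Cyp4a normalized counts of each liver, with genotype, replicate and age under the bars, PPARA-driven members in red tones and growth-hormone-driven members in blue tones. Cyp4a14 takes from 1.87% in Rragc+/+ replicate 4 to 53.3% in Rragc S74N/+ replicate 4.

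Within the PPARA-driven arm, the balance between the leading genes also differed among livers. The ratio of the normalized count of Cyp4a14 to that of Cyp4a10 was 0.217, 0.433, 0.289 and 0.102 in the Rragc+/+ livers. It was 1.42, 0.478, 0.259 and 2.25 in the Rragc S74N/+ livers. Replicates 1 and 4 of Rragc S74N/+ were thus the livers in which the count of Cyp4a14 exceeded that of Cyp4a10. Replicate 3 of that genotype fell within the range of Rragc+/+.

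Across the 8 livers, no pair of members was correlated past the threshold. Of the 15 pairs, the smallest adjusted p was 0.763 for Pearson's r and 0.520 for Spearman's rho (exact permutation tests). Cyp4a10 and Cyp4a14 had r = 0.38 (exact permutation p = 0.356, adjusted 0.763) and rho = 0.10 (p = 0.840), with r = 0.36 without the 2 livers farthest from the median of Cyp4a10 and 0.62 without Rragc S74N/+ replicate 4. Cyp4a12a and Cyp4a12b had r = 0.63 (exact permutation p = 0.131, adjusted 0.763) and rho = 0.12 (p = 0.793). That relation rested on the outermost livers, since r was 0.13 without the 2 farthest, and -0.79 without Rragc S74N/+ replicate 4 alone. The part of reads exchanged between copies was not tested.

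The genes whose log2 levels followed Cyp4a10 most closely over the 8 livers were Zfand6, Creg1, Nt5c2 and Fbxo21, each with Pearson's r = 0.95, and Dock4, with r = 0.93. These values were kept without Rragc S74N/+ replicate 4, at 0.94 to 0.96. The genes closest to Cyp4a12a were Chaf1a (r = 0.95), Olfm1 (0.94), Ciapin1 (0.94), Gm7072 (0.93) and Ino80e (0.93), and without that liver r was 0.92 for Olfm1 and 0.66 to 0.74 for the other 4. They are the extremes of 11174 genes over 8 livers and are given as a description, with no test.

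No other PPARA target passed the adjusted threshold in limma. Of 34 tested targets, 2 were higher and 3 lower at an unadjusted p below 0.05 in limma, beside 2.37% higher and 2.8% lower of all tested genes, and their median log2 fold change was -0.15. The same counts without Rragc S74N/+ replicate 4 were 1 higher and 1 lower of 33, with a median of 0.02. Acot3, an acyl-CoA thioesterase of peroxisomes, had a count of 8.33 ± 4.96 in Rragc+/+ and 46.1 ± 30.8 in Rragc S74N/+ (SD, n = 4 each), a log2 difference of 2.22 with no overlap between genotypes. Such a lack of overlap, higher in Rragc S74N/+, held for 1 of the 34 targets and for 1.3% of all tested genes. Vnn1, a pantetheinase, had a log2 fold change of -1.12 and Crat, carnitine acetyltransferase, of -0.82, and the adjusted p of all 3 was 0.846 in limma. These 3 were at 1.85, -0.72 and -0.67 without that liver. Of the targets, DESeq2 on the recovered reads called Acot3 and edgeR called none. The counts of Ppara itself were 1320, 1475, 1376 and 1773 in Rragc+/+ and 716, 1179, 2263 and 525 in Rragc S74N/+ livers, with a log2 fold change of -0.56 (adjusted p 0.846 in limma), or -0.25 without that liver. Ppara was thus lowest in Rragc S74N/+ replicates 4 and 1, the livers with the most Cyp4a14. Rxra, its partner on DNA, had a log2 fold change of -0.32, and of 10 tested genes for PPARA and its cofactors 0 passed an unadjusted p of 0.05.

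For the steps that follow omega-hydroxylation, 18 genes were tested and 0 were called or passed an unadjusted p of 0.05, with a median log2 fold change of -0.11, or 0.01 without Rragc S74N/+ replicate 4. The lowest unadjusted p belonged to Hsd17b4, the bifunctional enzyme of peroxisomal beta-oxidation, at 468 ± 43.9 in Rragc+/+ and 358 ± 59.3 in Rragc S74N/+ (SD, n = 4 each, log2 fold change -0.40) without overlap. Of the 18 genes, 1 was thus lower without overlap, beside 1.64% of all tested genes. Acaa1b, a peroxisomal thiolase, had a log2 fold change of -0.71 and Pex11a, which acts in peroxisome division, of -0.46, with livers of the genotypes overlapping. Por, the reductase that supplies electrons to every microsomal P450, had a log2 fold change of 0.33. The adjusted p of each was 0.846 in limma, and without that liver Hsd17b4 was at -0.39, Acaa1b at -0.28, Pex11a at -0.15 and Por at 0.16.

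Of the other Cyp4 genes, 7 were in the table and 5 were tested, with 0 called and a median of -0.04. Cyp4f15, which belongs to the subfamily that hydroxylates leukotrienes and other eicosanoids, had counts of 221, 324, 434 and 86.9 in Rragc+/+ and 695, 373, 146 and 1069 in Rragc S74N/+ livers. Its highest and second highest livers, Rragc S74N/+ replicates 4 and 1, were also those of Cyp4a14, and its log2 fold change was 0.97 (adjusted p 0.846 in limma), or 0.56 without Rragc S74N/+ replicate 4. Fitted log2 fold changes were 0.40 for Cyp4f14, -0.88 for Cyp4b1, -0.21 for Cyp4f13 and -0.04 for Cyp4v3, none of them past the threshold (0.30, -1.29, -0.01 and 0.03 without that liver), and Cyp4f16 and Cyp4f18 were under the filter.

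Other liver genes that growth hormone sets apart by sex were fitted in a single direction within each list when all 8 livers were used. All 15 tested male-biased genes were fitted lower in Rragc S74N/+, with a median log2 fold change of -0.97, and 7 passed an unadjusted p of 0.05, beside 2.8% of all tested genes lower at that p, but 0 were called. The median was -0.41 without Rragc S74N/+ replicate 4, with 6 of 15 lower at an unadjusted p below 0.05, beside 190 of all 11104 genes tested without it. Selenbp2, a selenium-binding protein, had counts of 5739 ± 1031 and 2012 ± 1428 (SD, n = 4 each, log2 fold change -2.06) that did not overlap, as was so for 3 of the 15 against 1.64% of all tested genes. Cyp7b1, an oxysterol hydroxylase, had a log2 fold change of -1.55 and Cyp2u1, a fatty acid hydroxylase of another P450 family, of -0.85, and without that liver the 3 were at -1.20, -0.90 and -0.59. Of 22 listed female-biased genes, 11 were in the table and 7 were tested. All 7 were fitted higher (median 1.48, or 1.06 for the 6 tested without that liver). Cux2 reached the filter only through that liver, with a count of 78.3 there, so its direction lends no support. In limma, 3 of the 7 passed an unadjusted p of 0.05, beside 2.37% of all tested genes higher at that p. These were Acot3, which is also among the PPARA targets, Cyp2c40, a P450 of arachidonic acid, and Abcd2, a peroxisomal transporter of fatty acids. Without that liver 2 of 6 passed that p, beside 122 of all 11104, and Abcd2 had an unadjusted p of 0.131 in limma.

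Among 14 tested genes of growth hormone signalling, 0 were called and 1 was higher at an unadjusted p below 0.05, beside 2.37% of all tested genes. This was Socs2, a feedback inhibitor of the receptor, with counts of 341, 256, 76.4 and 252 in Rragc+/+ and 635, 408, 416 and 977 in Rragc S74N/+ livers and a log2 fold change of 1.49 (adjusted p 0.846 in limma). All Rragc S74N/+ livers lay above all Rragc+/+ livers, which held for 1.3% of all tested genes. Ghr, the receptor, had a log2 fold change of 0.08, Stat5b of -0.37, and Bcl6, a repressor raised in male liver, of -0.98 (-0.68 without Rragc S74N/+ replicate 4), with adjusted p values of 0.943, 0.846 and 0.846. Cux2, a repressor of female liver, had a count of 78.3 in Rragc S74N/+ replicate 4, the liver with the least Cyp4a12a and Cyp4a12b, and of at most 9.32 in the other 7.

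**Figure D5:**
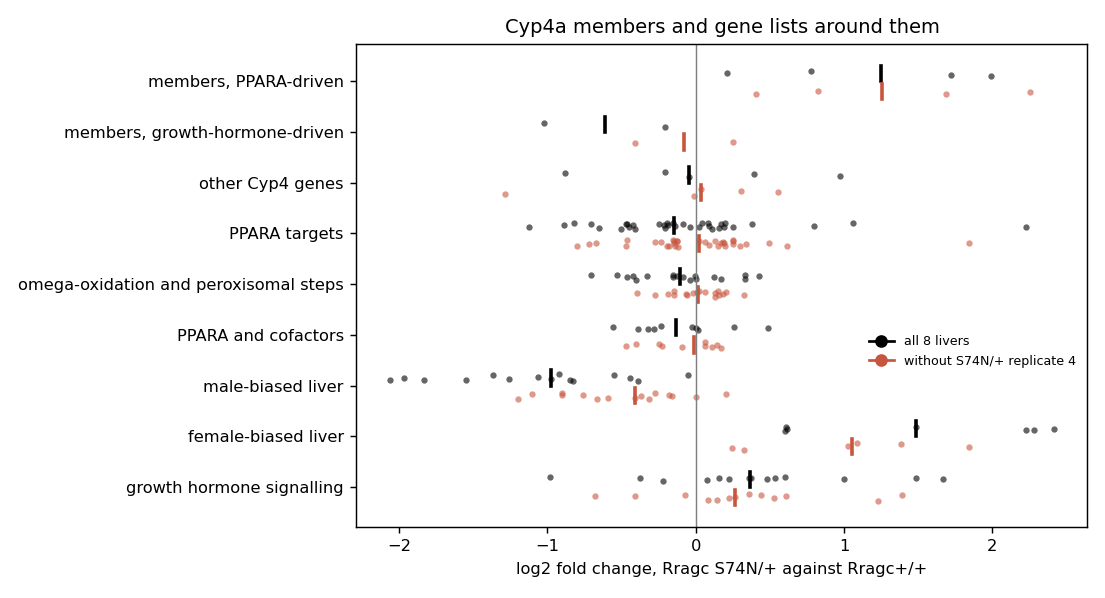
Points give the log2 fold change of each tested gene, Rragc S74N/+ against Rragc+/+, by list, in black for all 8 livers and in red without Rragc S74N/+ replicate 4, with short vertical lines at the medians. The PPARA targets centre near 0 (median -0.15, or 0.02 without that liver) while the 4 PPARA-driven Cyp4a genes lie above it, and the male-biased genes lie mostly below 0 in both colours.

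Gene lists for feeding state and other cell types were read beside these values. Of 9 tested genes raised by fasting, a state that also raises Cyp4a10 and Cyp4a14, 2 were higher at an unadjusted p below 0.05, beside 2.37% of all tested genes, and 0 were called, with a median of 0.49. Without Rragc S74N/+ replicate 4, 1 was higher and the median was 0.25. Igfbp1, an insulin-suppressed binding protein, had counts of 275, 235, 80.6 and 168 in Rragc+/+ and 1191, 338, 279 and 2252 in Rragc S74N/+ livers (log2 fold change 2.04, adjusted p 0.846 in limma, and 1.48 without that liver). Its 2 highest livers, Rragc S74N/+ replicates 4 and 1, were again the 2 with the most Cyp4a14. The part of feeding state in the Cyp4a values was not tested. Of 10 listed kidney tubule markers, which matter because kidney also transcribes Cyp4a genes, 5 were in the table and 2 were tested, with the proximal tubule markers Slc34a1 and Miox and the loop marker Slc12a1 under the filter. These were Gpx3 (log2 fold change -1.95, adjusted p 0.0411) and Kap (-2.20, adjusted p 0.846), whose summed counts were 214 to 373 in Rragc+/+ and 57.9 to 103 in Rragc S74N/+ livers. The tubule transporters and other markers Slc22a6, Slc5a2, Slc7a13, Umod and Aqp2 were not among the genes of the table. The part of kidney-type RNA was not tested. In whole liver, fewer cells of a type and less RNA per cell cannot be told apart.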

How the data were processed

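RNA of 8 livers was profiled with a stranded 3′ messenger RNA kit. According to the submitters' processing notes and the study's methods, the authors used TopHat2 2.0.10, Bowtie 1.0.0 and SAMtools 0.1.19 for alignment to GRCm38, HTSeq 0.6.1 for strand-aware counts of genes, and DESeq for scaling. The values they deposited hold this signal as 1 normalized count for each gene in each liver. Every value (100%) was a whole multiple, within 0.01, of its column's smallest value above 0, so whole reads were recovered. Wilson intervals of shares and floors (3 reads) cover counting error only, intervals of fold changes come from limma and cover the spread between livers, and no molecular identifiers are stated. Columns without a sample numbered 0.

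Genotypes were compared by limma 3.58.1 under R 4.3.3 (mean-variance trend, genotype as the only term) on log2(normalized count + 1), a scale that understates changes of low genes, for 11174 genes whose mean reached 10, with Benjamini-Hochberg adjustment at 0.05 over all of them. On the recovered reads, the quasi-likelihood test of edgeR 4.0.16 called 1 gene and DESeq2 1.42.0 called 10. The script was tested on simulated data. Single ratios and correlations were tested by exact two-sided permutation over livers. Summed counts of near-identical copies and list counts without Rragc S74N/+ replicate 4 were added after seeing the data. Coordinates and transcripts are those of GENCODE M21, a neighbouring release of the annotation counted against.

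Groups and ages come from the labels, and replicate numbers follow sample order and only name a liver. The text names the 6 members, the other Cyp4 genes in the table, a set of regulators (Ppara, Rxra, Ghr, Stat5b, Bcl6, Cux2 and Por), list genes past the threshold or otherwise those with the lowest unadjusted p (up to 3 a list), and the 5 genes closest to each leading member. Kidney markers under the filter are named as well. The members and lists were chosen with earlier results of these data known. Of the lists, the text gives those that bear on the Cyp4a genes, and those for feeding, clock, acute phase, immune and bile duct cells are given with the closing values. Other settings tried were other pseudocounts and filters, other rescalings, array weights in limma or no trend, age terms, 3-month-old mice alone and leaving out each liver.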

Additional observations from a re-analysis of the deposited data

Results flagged for a closer look

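In each genotype, the highest and the lowest liver were compared with the other 3 by their gap relative to the range (Dixon's test at the 95% level), for 24 values in 48 groups, of which chance alone would mark about 2.4. There were 2 marked values. The log2 level of Cyp4a12b in Rragc+/+ replicate 1 was 9.93, above 9.53 to 9.57 in the other 3 Rragc+/+ livers. The mean log2 level over 9 acute-phase genes in Rragc S74N/+ replicate 4 was 9.02, above 7.79 to 8.0 in the other 3 Rragc S74N/+ livers, and this is the liver with the least Cyp4a12a and Cyp4a12b and the most Cyp4a14. What part either has in the Cyp4a values was not tested.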

How the results depend on the processing

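No paired analysis was possible because the labels carry no replicate numbers. None of the 6 Cyp4a genes was called under any alternative run. Cyp4a14 stayed higher in Rragc S74N/+ throughout, from 1.19 (3-month-old mice alone) to 2.11 on the log2 scale, and from 1.33 to 2.60 with 1 liver left out. Its smallest adjusted p was 0.253, without Rragc S74N/+ replicate 3. Cyp4a12b stayed lower, from -1.11 to -0.41, and from -1.47 to -0.41 with 1 liver left out. Cyp4a31 ranged from 0.38 to 1.24, and Cyp4a32 from 0.97 to 2.69, with no value at a mean of at least 50 or without Rragc S74N/+ replicate 1 or 2, where it fell under the filter. Cyp4a10 turned to -0.26 among 3-month-old mice alone and ranged from -0.12 to 0.51 with 1 liver left out, turning without Rragc+/+ replicate 4 (-0.07) and Rragc S74N/+ replicate 3 (-0.12). Cyp4a12a turned positive in edgeR (0.016) and DESeq2 (0.013), with age as a covariate (0.14) or factor (0.26) and among 3-month-old mice alone (0.37), and ranged from -0.54 to 0.25 with 1 liver left out, turning without Rragc S74N/+ replicate 4. The ratio of the leading members turned to -0.63 among 3-month-old mice alone and ranged from 0.11 to 0.79 with 1 liver left out. The cause was not tested, and the age subset holds fewer livers. The number of genes called over the whole table, 1, was 0 in limma without the trend, with age as a covariate and among 3-month-old mice alone (603, 415 and 640 genes at an unadjusted p below 0.05), 3 with age as a factor and 10 in DESeq2 (675 at that p), and 0 to 2 with 1 liver left out. It was 1 in edgeR, with 618 genes at that p. Depth limits Cyp4a32, with at most 30 reads in a liver, and Cyp4a31, with 30 to 205.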

Other observations

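Among the remaining lists, 0 genes were called by limma. The median log2 fold change, Rragc S74N/+ against Rragc+/+, was -0.16 over 10 genes raised by feeding, -0.12 over 9 clock genes and 0.34 over 9 acute-phase genes, or 0.02 without Rragc S74N/+ replicate 4. At an unadjusted p below 0.05, limma had 0 genes of the feeding and clock lists and 1 of the acute-phase list. The median was 0.05 over 5 hepatocyte markers, 0.16 over 6 Kupffer cell markers, of which 1, Marco, was higher at that p and called by DESeq2 on the recovered reads, and 0.38 over 4 endothelial markers, of which 2 were higher, beside 2.37% of all tested genes. For 2 neutrophil markers it was -0.09, the 1 cholangiocyte marker tested had 0.12, and none of the 4 T and B cell markers reached the filter.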
